A study of Homo sapiens with 4 samples.

Results

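The metallothionein and zinc transporter genes described here are the 10 symbols MT1E, MT1F, MT1G, MT1X, MT2A, MTF1, SLC30A1, SLC39A8, SLC39A10 and SLC39A14. They were chosen by name, and all 10 were found among the 56638 gene symbols of the deposited count table. RNA came from MV4;11, an established human cell line of acute myeloid leukaemia, known for its KMT2A-AFF1 fusion and a FLT3 internal tandem duplication. Cells kept in RPMI received vehicle (2 libraries) or the synthetic compound CU-T12-9, which activates the TLR1/TLR2 heterodimer, at 1 µg/mL (2 libraries), and all were collected at 24 h. The vehicle is DMSO in the sample labels and PBS in the treatment protocol, and the libraries are called DMSO here. One comparison follows from these groups, between CU-T12-9 and DMSO, and it asks what the agonist changes in the expression of this line.

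Metallothioneins are small cysteine-rich proteins that bind zinc and copper and buffer the free metal of the cytosol. Their genes are switched on by MTF1, a zinc finger transcription factor that senses zinc and binds metal response elements in promoters. Transporters of the SLC30 family move zinc out of the cytosol, across the cell surface or into organelles, and those of the SLC39 family move it in. In myeloid cells, zinc handling is known to be reset by microbial products and cytokines, and metallothioneins, SLC39A8 and SLC39A14 are among the genes known to be induced.

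The libraries held 23087102 to 25867733 counted reads, and 1 read corresponded to 0.0384 to 0.0442 CPM (read counts scaled to a common library total, after adjustment by the TMM method). All 9 marker genes of the myeloid leukaemia line had reads, summing to 25035 to 28345 per library, and they moved in both directions. ANPEP, ITGAM and PTPRC rose by 4.58, 2.06 and 1.29 on the log2 scale. CSF1R (0.68), SPI1 (0.625), MEIS1 (0.46) and HOXA9 (0.43) rose as well, while CD33 and FLT3 fell by 0.41 and 0.31. The 5 erythroid markers were at 0 in all 4 libraries and the 5 T cell markers summed to at most 5 reads. The B cell and fibroblast markers summed to at most 45 and 34 reads, and the 5 epithelial markers to 81 to 149, all of them from the keratins KRT8 and KRT18. Among all 14018 genes tested, 65.2% were called changed (edgeR quasi-likelihood test, Benjamini-Hochberg adjusted p under 0.05), 32.0% as higher and 33.2% as lower in CU-T12-9, so a call alone says little about a gene. The labels do not state whether the 2 libraries of a group stem from different cultures. The p-values therefore reflect the spread between these libraries alone, and that spread may be technical.

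In CU-T12-9 the zinc-binding MT2A rose 3.22-fold, the zinc-sensing factor MTF1 1.80-fold and the zinc exporter SLC30A1 1.42-fold, while the importers SLC39A8, SLC39A14 and SLC39A10 fell 2.31-fold, 2.20-fold and 1.36-fold. MT1F, MT1E and MT1X rose by less than MT2A, and MT1G did not pass the test. Of the 10 genes, 6 were higher, 3 lower and 1 not called. Over all genes tested, 32.0% were called higher and 33.2% lower (65.2% in either direction). When the test asked for more than a 2-fold change, MT2A was higher and SLC39A8 and SLC39A14 were lower, against 7.23% of all genes higher and 5.55% lower in that test (12.8% in either direction). The median log2 fold change was 0.29 over the 10 genes and 0.00 over all genes tested. The 10 genes mix directions, with a median of 0.31 over the 5 metallothioneins and -0.79 over the 4 transporters. All 10 passed the filter on low counts.

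**Figure D1:**
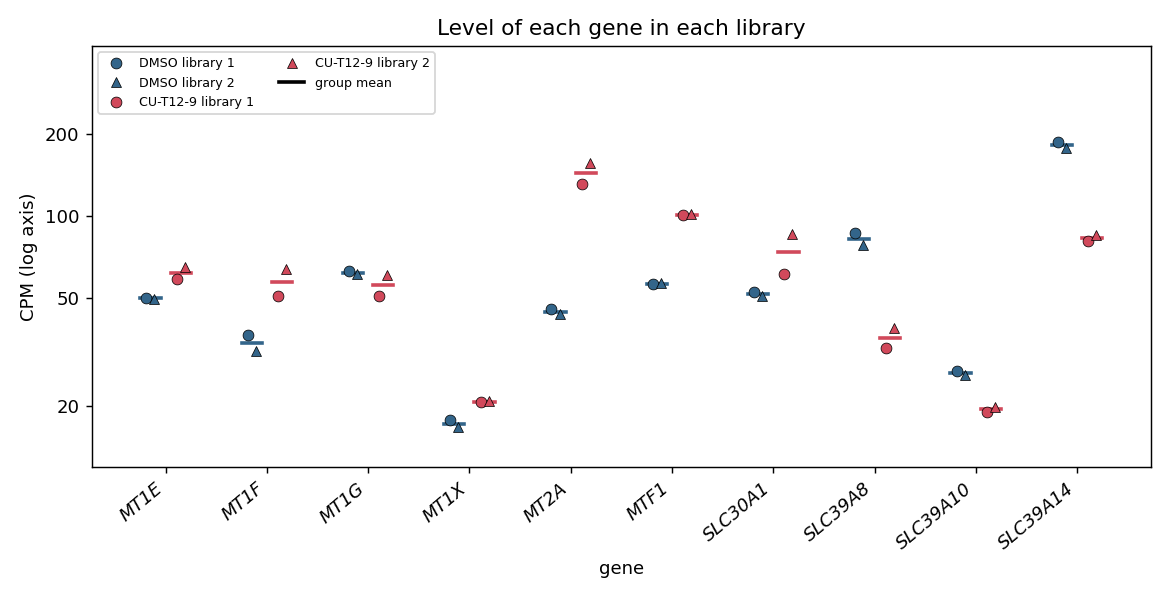
CPM of each of the 10 genes (log axis) in the 2 DMSO and 2 CU-T12-9 libraries, with points for libraries and bars for group means. MT2A sits at 43.6 to 45.3 CPM in DMSO and at 130.3 to 156 CPM in CU-T12-9, and SLC39A14 at 178 to 187 and 80.8 to 84.9 CPM.

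MT2A, the human metallothionein most broadly expressed across tissues, stood at 45.3 and 43.6 CPM in the DMSO libraries and at 130.3 and 156 CPM in the CU-T12-9 libraries. Both CU-T12-9 libraries lay far above both DMSO libraries, and the second of them was the higher. The log2 fold change was 1.69 (SE 0.09, 95% interval 1.49 to 1.88, edgeR quasi-likelihood Benjamini-Hochberg adjusted p = 2.45e-07). In bulk RNA, a change in the number of cells expressing a gene and a change in RNA per cell cannot be told apart.

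MT1F, a metallothionein of the MT1 group, went from 36.5 and 32.0 CPM to 50.8 and 63.6 CPM. Its groups did not overlap, although the CU-T12-9 libraries differed 1.25-fold from each other. It rose by 0.74 on the log2 scale (SE 0.11, edgeR adjusted p = 0.000288). MT1E went from 50.1 and 49.5 CPM to 58.5 and 65.1 CPM, a rise of 0.31 on the log2 scale (SE 0.07, edgeR adjusted p = 0.00285). Both DMSO libraries of MT1E were nearly level and both CU-T12-9 libraries were above them.

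MT1X had the lowest count of the 5 metallothioneins chosen, with 464 and 401 reads (17.8 and 16.7 CPM) in DMSO and 484 and 473 reads (20.7 and 20.9 CPM) in CU-T12-9. The groups were close without overlapping. Its rise of 0.27 (SE 0.08, edgeR adjusted p = 0.0186) was not called by DESeq2 (adjusted p = 0.0846) or by edgeR without the first (adjusted p = 0.0731) or the second DMSO library (adjusted p = 0.211). Among alternatives that kept all 4 libraries without a minimum fold, the lowest adjusted p was 0.0118 (edgeR with upper-quartile factors). The highest was the 0.0846 of DESeq2.

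MT1G differed from the other 4. It had 62.5 and 61.1 CPM in DMSO and 50.7 and 60.6 CPM in CU-T12-9, so that the second CU-T12-9 library nearly reached the DMSO level. The log2 fold change was -0.15 with a 95% interval of -0.34 to 0.04 (edgeR adjusted p = 0.136). That interval excludes a rise of the size seen for MT2A, MT1F or MT1E. Without the second CU-T12-9 library MT1G was called lower (log2 fold change -0.29, edgeR adjusted p = 2.71e-06), and without the first the value was 0.00 (edgeR adjusted p = 0.965). In those fits the lone CU-T12-9 library is assumed to vary like the DMSO pair.

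Within each library, the metallothionein genes can be compared without scaling to the library size. In the DMSO libraries there were 0.725 and 0.714 MT2A reads per MT1G read, and in the CU-T12-9 libraries 2.57 and 2.58. The ratio was thus close between the libraries of a group and well apart between groups. MT2A held 21.3% and 21.4% of all metallothionein reads in DMSO (Wilson 95% intervals 20.2% to 22.4% and 20.2% to 22.5%) and 41.5% and 42.3% in CU-T12-9 (40.3% to 42.6% and 41.2% to 43.3%). MT1G held 29.3% and 29.9% in DMSO and 16.1% and 16.4% in CU-T12-9, passing from the largest share to about that of MT1F and MT1E. MT1F kept 15.7% to 17.2% in all 4 libraries, MT1E went from 23.5% and 24.2% to 18.6% and 17.6%, and MT1X from 8.35% and 8.20% to 6.59% and 5.65%. Such intervals hold counting error alone, because reads lacking molecular identifiers are not independent molecules.

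Summed over all metallothionein rows, a quantity that stays the same when reads move between those rows, the level was 213 and 204 CPM in DMSO and 314 and 370 CPM in CU-T12-9. The means were 209 ± 6.37 and 342 ± 39.4 CPM (SD, n = 2 in each group), a ratio of 1.64. MT2A made up 74.1% of the difference. Without MT2A the sums were 164 ± 5.17 and 199 ± 20.9 CPM, a ratio of 1.21. With 2 libraries against 2 an exact permutation test cannot pass the threshold, and none is given.

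**Figure D2:**
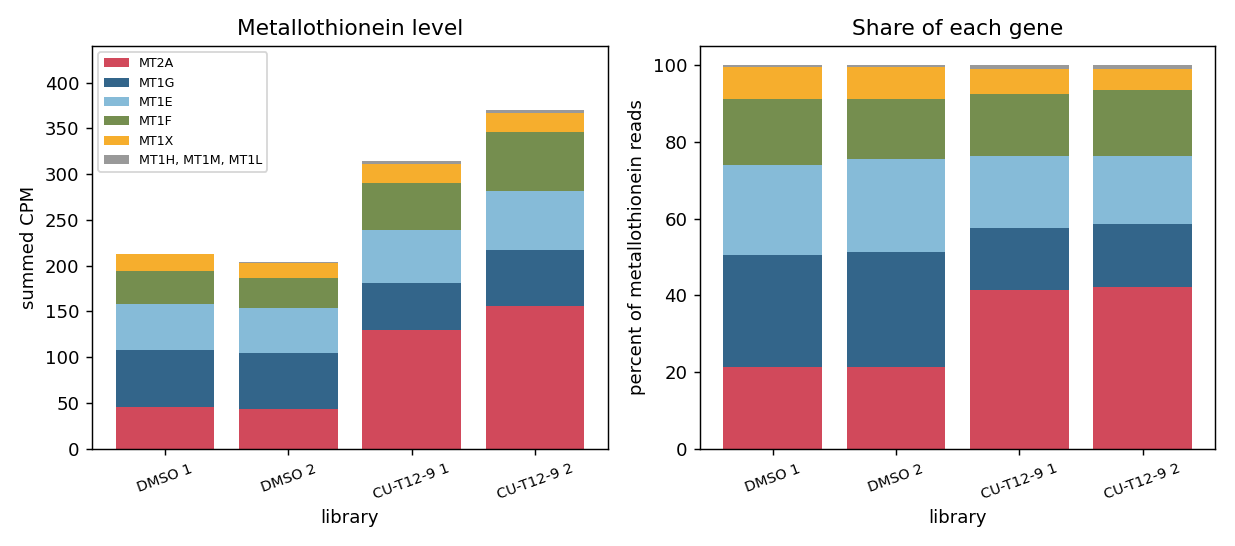
Summed metallothionein CPM in each library (left) and the percentage of metallothionein reads from each gene (right), with colours for genes. MT2A grows from 21.3% and 21.4% of the reads in DMSO to 41.5% and 42.3% in CU-T12-9, while MT1G shrinks from 29.3% and 29.9% to 16.1% and 16.4%.

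Per kilobase of exon, MT1G was the highest metallothionein in DMSO at 82.4 ± 1.28 CPM per kb, and MT1X the lowest at 21.0 ± 0.917. MT1E (47.3 ± 0.386), MT1F (46.7 ± 4.35) and MT2A (44.9 ± 1.21) lay between them, and MT1F did not differ from either of the other two beyond its own SD. In CU-T12-9, MT2A led at 145 ± 18.6 CPM per kb. MT1F (77.9 ± 12.4) and MT1G (74.2 ± 9.39) came next and did not differ beyond their spread, followed by MT1E (58.7 ± 4.38) and MT1X (25.3 ± 0.178). The exon lengths are those of GENCODE release 29, not of the authors' annotation. With the length of the longest coding transcript in their place, MT1G and MT1X were again at the ends in DMSO (98.4 and 32.1 CPM per kb) and MT2A (182) and MT1X (38.7) in CU-T12-9. The order of the genes in between changed.

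Metallothionein genes are near-copies of one another in a cluster on chromosome 16, so reads can be assigned to the wrong member. In GENCODE release 29, 4.88% of the 50-base stretches of the longest coding MT2A transcript also occur in a transcript of another gene, 3.59% for MT1F, 10.6% for MT1E and 14.3% for MT1G. For the longest coding MT1X transcript the figure was 55.8%, all of it shared with a single other gene model, AC026461.1. Stretches of MT1F, MT1G and MT2A also occur in other transcripts of MT1X. How the counting treated such reads is not stated in the labels, and its part in the values, the sum included, was not tested. The pseudogene rows MT1P1, MT1P3, MT1XP1 and MT2P1 and the row of AC026461.1, which share such stretches and lie outside the sum, had no read in any library. None of the 50-base stretches of SLC30A1, SLC39A8, SLC39A10 or SLC39A14 was shared.

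Outside the 10 genes chosen, the other metallothioneins gave few reads. MT1M, with 8 and 10 reads in DMSO and 39 and 38 in CU-T12-9, rose by 2.20 on the log2 scale (SE 0.32, edgeR adjusted p = 0.000271). The transcribed pseudogene MT1L, with 10 and 10 against 30 and 27 reads, rose by 1.62 (SE 0.33, edgeR adjusted p = 0.00194). Both passed the filter on low counts only through the CU-T12-9 libraries. MT1H had 8 to 12 reads per library and was not tested. MT1A, MT1B, MT3, MT4, MT1DP, MT1JP and MT1CP had no read in any library, and MT1IP had no row.

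The metal response element to which MTF1 binds has the core TGCACNC or TGCGCNC. This core was searched on both strands of the RefSeq promoter windows (250 bases before to 50 bases after a start site, build GRCh38.p14), with overlapping matches counted. Of 35116 windows, 29.6% held at least 1 match, 8.60% at least 2, 0.601% at least 4 and 0.0199% at least 8. Windows were at hand for 6 of the 10 genes (MT2A, MT1X, MTF1, SLC30A1, SLC39A8 and SLC39A10). Those of MT2A (8 matches), MT1X (4 matches) and SLC30A1 (2 matches) are printed because these genes rose by unequal amounts, and that of MT1H (8 matches) because it gave almost no reads. Capitals mark matches, on either strand.
MT2A, chr16:56608334-56608633, plus strand: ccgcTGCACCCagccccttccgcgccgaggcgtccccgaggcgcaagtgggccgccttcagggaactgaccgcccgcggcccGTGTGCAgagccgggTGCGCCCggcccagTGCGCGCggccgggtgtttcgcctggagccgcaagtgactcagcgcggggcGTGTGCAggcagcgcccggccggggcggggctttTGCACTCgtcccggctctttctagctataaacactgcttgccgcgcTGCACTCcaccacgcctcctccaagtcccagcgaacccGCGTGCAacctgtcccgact
MT1X, chr16:56682220-56682519, plus strand: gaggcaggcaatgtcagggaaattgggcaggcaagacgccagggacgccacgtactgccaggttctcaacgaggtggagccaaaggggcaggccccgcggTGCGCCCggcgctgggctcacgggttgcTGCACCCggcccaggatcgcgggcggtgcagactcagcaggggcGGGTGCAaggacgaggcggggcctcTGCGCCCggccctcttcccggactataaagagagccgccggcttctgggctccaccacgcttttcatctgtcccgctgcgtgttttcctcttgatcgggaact
MT1H, chr16:56669564-56669863, plus strand: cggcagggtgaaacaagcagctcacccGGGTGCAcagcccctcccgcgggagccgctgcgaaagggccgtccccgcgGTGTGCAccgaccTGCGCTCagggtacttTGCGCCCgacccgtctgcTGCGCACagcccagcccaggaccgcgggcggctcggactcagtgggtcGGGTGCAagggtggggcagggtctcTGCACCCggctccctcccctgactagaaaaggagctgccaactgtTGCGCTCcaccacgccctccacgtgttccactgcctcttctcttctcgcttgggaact
SLC30A1, chr1:211579112-211579411, minus strand: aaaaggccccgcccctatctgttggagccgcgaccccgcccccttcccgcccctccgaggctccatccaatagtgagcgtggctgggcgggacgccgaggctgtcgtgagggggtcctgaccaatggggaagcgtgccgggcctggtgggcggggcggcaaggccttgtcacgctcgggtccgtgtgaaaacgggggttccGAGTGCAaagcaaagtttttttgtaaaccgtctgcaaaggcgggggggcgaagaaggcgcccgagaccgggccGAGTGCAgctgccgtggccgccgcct

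MT1H thus held as many matches as MT2A and had at most 12 reads in a library, against at least 1045 for MT2A. The window of MT1B, which had no read, held 3 matches. MTF1 had none. SLC39A8 had 1 match in 1 of its 3 windows and SLC39A10 1 match in 1 of its 2. A match is a description of these letters, not evidence of a bound site.

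**Figure D3:**
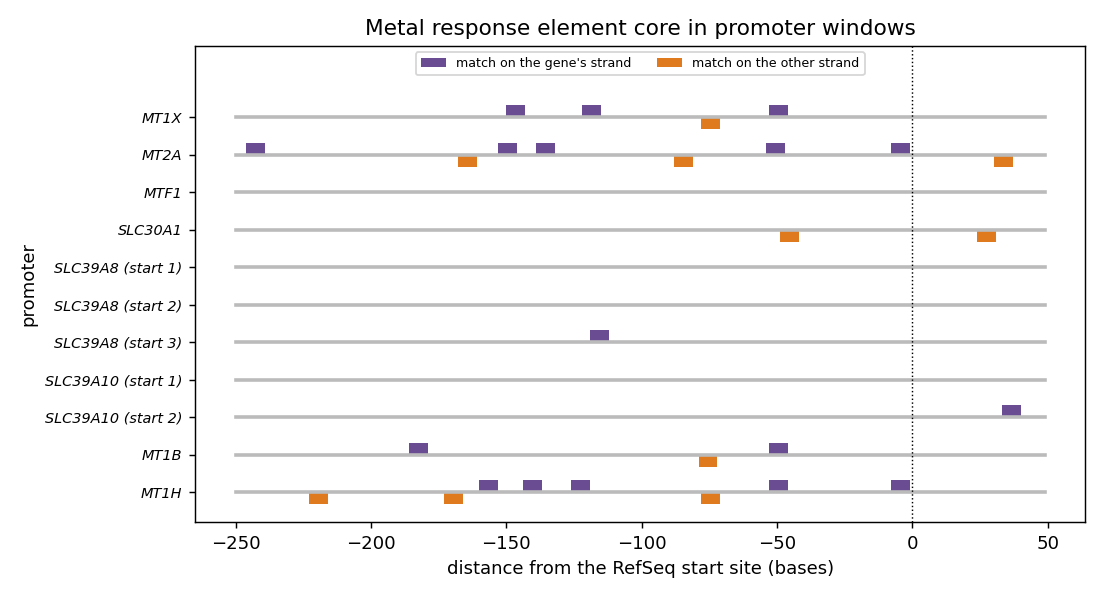
Positions of the metal response element core (boxes, by strand) in the promoter windows of 6 of the 10 genes and of MT1B and MT1H, against the distance in bases from the RefSeq start site. MT2A and MT1H each hold 8 matches, MT1X 4 and SLC30A1 2.

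MTF1 itself stood at 56.1 and 56.5 CPM in DMSO and at 101 CPM in both CU-T12-9 libraries. The libraries of each group were almost level, and the groups were far apart. MTF1 rose by 0.84 on the log2 scale (SE 0.05, 95% interval 0.72 to 0.96, edgeR adjusted p = 9.66e-07). The rise of the gene for the factor was thus smaller than that of MT2A and larger than that of MT1X or MT1E, whose 95% intervals (0.08 to 0.45 for MT1X and 0.16 to 0.46 for MT1E) did not overlap with that of MTF1.

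SLC30A1, the main zinc exporter of the plasma membrane and itself a known target of MTF1, had 52.7 and 50.8 CPM in DMSO and 61.4 and 85.9 CPM in CU-T12-9. Both CU-T12-9 libraries were above DMSO, the second by far more than the first. Its log2 fold change was 0.51 (SE 0.13, edgeR adjusted p = 0.00725), and DESeq2 did not call it (adjusted p = 0.0665). It was 0.24 without the second CU-T12-9 library and 0.76 without the first. Among alternatives that kept all 4 libraries without a minimum fold, the lowest adjusted p was 1.38e-05 (edgeR without a filter on low counts). The highest was the 0.0665 of DESeq2.

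The 1.40-fold gap between the CU-T12-9 libraries at SLC30A1 was matched or exceeded by 1.92% of the 10129 tested genes that averaged 5 CPM or more. MT1F (1.25-fold), MT2A (1.20-fold), MT1G (1.20-fold) and MT1E (1.11-fold) were also higher in the second CU-T12-9 library, with gaps that 6.42%, 11.1%, 11.4% and 30.6% of genes matched or exceeded. SLC39A8, which was called lower in CU-T12-9, was higher in the second library too (1.18-fold, matched or exceeded by 13.8%). SLC39A14 and SLC39A10 were slightly higher there (1.05-fold each, matched or exceeded by 62.1% and 64.2%). MT1X (1.01-fold) and MTF1 (1.00-fold) were level. In DMSO the gap at SLC30A1 was 1.04-fold.

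SLC39A14, an importer of zinc, manganese and iron, had the most reads of the 10 genes in DMSO. It went from 187 and 178 CPM to 80.8 and 84.9 CPM, with close values within each group and no overlap. The log2 fold change was -1.14 (SE 0.06, 95% interval -1.27 to -1.01, edgeR adjusted p = 1.75e-07, and 0.0314 against a 2-fold change). SLC39A8, which carries zinc, manganese and cadmium, fell from 86.6 and 78.4 CPM to 32.8 and 38.6 CPM. Both CU-T12-9 libraries were far below both DMSO libraries. Its log2 fold change was -1.21 (SE 0.09, 95% interval -1.41 to -1.01, edgeR adjusted p = 2.24e-06, and 0.037 against a 2-fold change).

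SLC39A10, a zinc importer of the cell surface important for lymphocyte survival, fell from 26.9 and 26.0 CPM to 19.0 and 19.9 CPM. The groups did not overlap and the libraries within each were close. The log2 fold change was -0.44 (SE 0.08, edgeR adjusted p = 0.000824), with a 95% interval of -0.62 to -0.27 that lies above those of SLC39A8 and SLC39A14. Per kilobase of exon in DMSO, SLC39A14 (34.4 ± 1.21 CPM per kb) was above SLC39A8 (14.0 ± 0.988) and SLC39A10 (4.74 ± 0.113), and the order was the same in CU-T12-9 (15.6 ± 0.543, 6.07 ± 0.706 and 3.49 ± 0.114).

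Over the whole SLC39 family, 11 of 14 genes were tested, of which 6 fell, 0 rose and 5 were not called by edgeR. DESeq2 and limma-voom likewise called 6 lower and 0 higher, and 1 gene, SLC39A13, was higher at an edgeR p under 0.05 before adjustment. The background was 33.2% of all genes called lower. The median over the 11 genes was -0.44 on the log2 scale. Both the counts and this median include the 3 importers described above, which were chosen with earlier results of these data known. Over the 8 other tested genes, 3 were called lower and 0 higher. That share of 37.5% was near the 33.2% over all genes, and the median of these 8 was -0.025. A fall across the family was thus not seen outside the chosen genes. Beside the 3 genes above, SLC39A4, an importer best known from the intestine, fell by 0.97 (55.6 and 55.3 CPM to 26.3 and 30.5 CPM). SLC39A7, which releases zinc from the endoplasmic reticulum and Golgi, fell by 0.70 (90.7 ± 0.773 to 55.9 ± 1.96 CPM), and SLC39A3 by 0.65 (102 ± 1.28 to 64.8 ± 9.29 CPM). The most abundant importer by reads in CU-T12-9, SLC39A9, was not called (190 ± 0.106 to 201 ± 9.02 CPM, log2 fold change 0.08, edgeR adjusted p = 0.203). Without the first CU-T12-9 library it was called higher (0.16, edgeR adjusted p = 0.000511). SLC39A13 had a value of 0.21 (edgeR adjusted p = 0.0506) and was called higher without the second CU-T12-9 library (0.25), under 2 other scalings and with a filter of 1 CPM. SLC39A1, SLC39A6 and SLC39A11 had values between -0.03 and 0.01. SLC39A2, SLC39A5 and SLC39A12 had at most 2 reads in a library.

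In the SLC30 family, SLC30A1 was the single gene called higher among 6 tested of 10, with 2 lower and 3 not called (DESeq2 called 0 higher and 1 lower). These counts are near or below the shares over all genes, 32.0% higher and 33.2% lower. SLC30A5, which loads zinc into the early secretory pathway, fell by 0.21 (91.5 ± 4.71 to 79.3 ± 2.34 CPM, edgeR adjusted p = 0.0127), a call not made by DESeq2 (adjusted p = 0.0599) or by edgeR without the first DMSO library (adjusted p = 0.194). SLC30A3, a vesicular zinc transporter of neurons, was nearly unread, with 22 and 22 reads in DMSO and 0 and 4 in CU-T12-9, and was called lower (edgeR adjusted p = 0.00221). It passed the filter on low counts only through the DMSO libraries. SLC30A6, SLC30A7 and SLC30A9 had values of -0.07, -0.13 and 0.11 and were not called. Without the first CU-T12-9 library SLC30A9 was called higher (0.24). SLC30A4, SLC30A8 and SLC30A10 had no read and SLC30A2 at most 1 in a library.

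**Figure D4:**
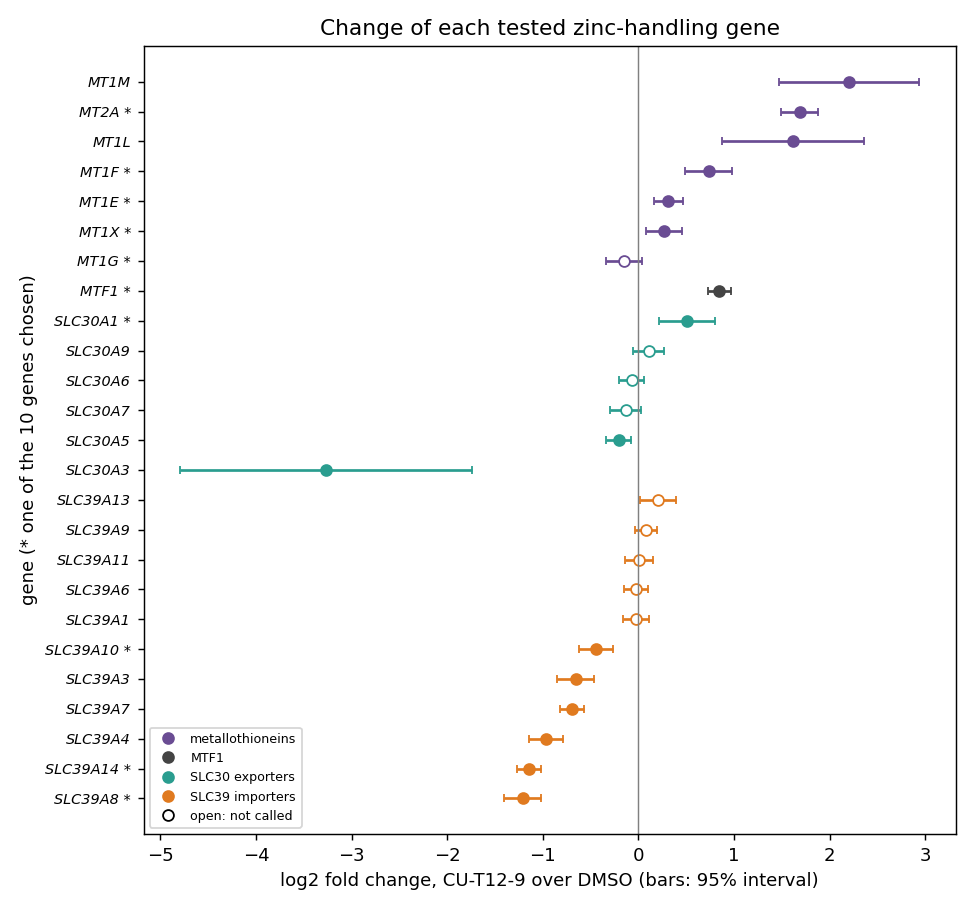
Log2 fold change of each tested metallothionein, MTF1, SLC30 and SLC39 gene in CU-T12-9 over DMSO (points, filled where called) with 95% intervals (bars). Of the 11 SLC39 genes 6 are called lower and 0 higher, against 33.2% lower and 32.0% higher over all genes tested. The 6 include SLC39A8, SLC39A10 and SLC39A14, which are among the 10 genes chosen. Without these, 3 of 8 are called lower. The 5 metallothioneins chosen run from -0.15 for MT1G to 1.69 for MT2A. MT1M and MT1L passed the filter on low counts only through CU-T12-9, and SLC30A3 only through DMSO.

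Among 11 genes that handle copper, which metallothioneins also bind, 4 rose and 5 fell (81.8% called, against 65.2% of all genes), and the median was -0.40 on the log2 scale. One of the rises, COMMD1 (0.25), was not called by DESeq2 (adjusted p = 0.0929) or by edgeR without the first (adjusted p = 0.195) or the second DMSO library (adjusted p = 0.11). The copper-exporting ATPase ATP7A rose from 3.24 ± 0.0337 to 9.70 ± 1.22 CPM (log2 fold change 1.58) and the copper chaperone CCS by 0.78, while the importer SLC31A1 fell by 0.77, the mitochondrial copper chaperone SCO1 by 0.78 and the copper-zinc superoxide dismutase SOD1 by 0.60. Of 8 other divalent metal transport genes 3 rose and 1 fell (50% called, against 65.2% of all genes). SLC11A2, an importer of iron and other divalent metals, rose by 1.37 (27.6 ± 1.42 to 71.1 ± 6.03 CPM), ATP2C1 by 0.56 and the lysosomal channel MCOLN1 by 0.22 (edgeR adjusted p = 0.0409). The call of MCOLN1 was lost without either DMSO library (adjusted p = 0.271 and 0.2), by DESeq2 (adjusted p = 0.165) and in 3 other settings. The iron exporter SLC40A1 fell by 2.43, from 59 and 36 reads to 8 and 8, and passed the filter only through the DMSO libraries. TMEM163 was not called (0.42), though it was without the first CU-T12-9 library (0.44) and in 3 other settings.

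The S100 proteins that bind zinc outside the cell were low. S100A8 fell from 95 and 94 reads to 30 and 15, S100A9 from 254 and 250 to 98 and 117, and S100A12 had 0 and 0 against 3 and 2 reads and was not tested. Of 9 genes known to respond to glucocorticoids, hormones that also induce metallothioneins, 4 rose, 1 fell and 4 were not called. The share called was 55.6%, against 65.2% of all genes. DUSP1 (0.18), KLF9 (-0.06) and DDIT4 (-0.29) were among those not called. FKBP5 rose by 1.86 (85.8 ± 0.856 to 312 ± 4.34 CPM), SGK1 by 1.96, TSC22D3 by 1.44 and PER1 by 0.86. ZBTB16 fell by 2.46, and the receptor gene NR3C1 was not called (0.08) except without the first CU-T12-9 library (0.17). Over all 45 tested genes of these 7 lists together, 27 were called (60% against 65.2% of all genes), 13 as higher and 14 as lower. The 27 include MT1M, MT1L, SLC30A3 and SLC40A1, which passed the filter on low counts only through the group where they were higher.

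Some genes outside the lists had a pattern over the 4 libraries like that of MT2A or SLC39A14, the metallothionein and the transporter with the highest mean CPM among those called. Likeness was the Euclidean distance between log2 CPM centred over the 4 libraries, over 10076 tested genes that averaged 5 CPM or more. The 3 nearest to MT2A were SLC43A2 (distance 0.037, log2 fold change 1.66), C7orf60 (0.073, 1.65) and TLR1 (0.0869, 1.68). Nearest to SLC39A14 were PSAT1 (0.0368, -1.12), SNRPB (0.0391, -1.16) and FOSL2 (0.0393, -1.13). With 4 libraries in 2 groups, likeness rests on the size of the change and on the gap between the CU-T12-9 libraries.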

How the data were processed

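RNA of 2 DMSO and 2 CU-T12-9 libraries of MV4;11 cells was sequenced. The authors deposited whole-number read counts per gene symbol. Per the submitters' processing notes, the tools were FastQC 0.11.7, TopHat2 and featureCounts 1.5.2 with build GRCh37. Annotation, strand setting and the treatment of multi-mapping reads: not given in the sources used here. Groups and replicate numbers come from the sample titles.

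Counts were analysed in R 4.3.3 with edgeR 4.0.16 (quasi-likelihood F-test, group as the only term, filterByExpr, 14018 genes, TMM, Benjamini-Hochberg over all genes, threshold 0.05). Each standard error is the log2 fold change over the root of its F statistic, and means and SDs were taken over CPM. Alternatives were other scalings and filters, DESeq2 1.42.0, limma-voom (limma 3.58.1), a replicate block, leaving out each library and, chosen after seeing the data, a test against a 2-fold change. The scripts were tested on simulated data. The 10 genes, the lists and the motif were chosen with earlier results of these data known. All 10 genes are named, and of each list up to 5 tested genes with the largest change and untested genes by their reads. NR3C1, DUSP1, KLF9, DDIT4, KRT8, KRT18, SLC39A1, SLC39A6, SLC39A11, COMMD1, AC026461.1, the line markers and the pseudogenes were named after their values were seen. Promoter sequences are RefSeq's. Depth was 23087102 to 25867733 reads per library.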

Additional observations from a re-analysis of the deposited data

How the results depend on the processing

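MT2A, SLC39A8 and SLC39A14 kept their direction and their call under all 13 alternatives, with log2 fold changes of 1.55 to 1.84, -1.34 to -1.07 and -1.19 to -1.07. MTF1, MT1F, MT1E and SLC39A10 did so except against a 2-fold change, where 1 of the 10 genes was higher and 2 lower, 1791 of all genes were called in place of 9135, and 10 of the other pathway genes in place of 27. DESeq2 called 4 of the 10 genes higher, without MT1X and SLC30A1. The log2 fold change of MT1G was 0.0032 without the first CU-T12-9 library and -0.2883 without the second, where it was called lower. With 1 library fewer the value rests on the other. Leaving out 1 library gave 7615 to 9908 genes called, 5 to 6 of the 10 genes higher and 3 to 4 lower, 24 to 31 of the other pathway genes, and a log2 ratio of summed metallothionein reads of 0.589 to 0.857 (0.713 with all 4), the extremes coming from the CU-T12-9 libraries. The replicate number as a block gave 9143 genes called and the same call for all 10 genes. The numbers are not known to pair the libraries, whose differences within DMSO and within CU-T12-9 correlated at 0.00795 across genes. Other scalings moved the median of all genes by less than 0.1 on the log2 scale. Depth limits the genes with few reads, such as MT1M, MT1L and SLC30A3.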
